A study of Mus musculus with 2 samples.

Results

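The cells described here are microglia, the resident macrophages of the central nervous system, that held transcripts of a dividing cell in mouse spinal cord 3 days after injury (3 dpi). They were chosen from the 3 dpi single-cell library by a rule on unique molecular identifiers (UMIs), the tags that count captured transcript molecules. A barcode needed at least 2000 UMIs, at least 5 UMIs per 10000 of P2ry12, Tmem119, Fcrls, Olfml3, Siglech and Sall1 together, under 40 per 10000 of the myelin genes Mag, Mog and Mobp, and under 80 per 10000 of Hmox1. It also needed at least 3 UMIs summed over 10 genes of the cell cycle: Mki67, Top2a, Cdk1, Ccnb1, Birc5, Cenpf, Tpx2, Ube2c, Pclaf and Ccna2. Of 2957 barcodes that passed the microglia gate at 3 dpi, 1591 met the cycle rule and are called cycling microglia, and 1366 did not and are called other microglia. The 3 dpi library held 13594 barcodes, and both libraries together held 23732.

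The study set 1 library of injured cord at 3 dpi beside 1 library of sham cord. Each was prepared from 5 male and 5 female C57BL/6 mice aged 8 weeks, pooled, from an 8 mm piece of cord dissociated to single cells and run on the 10X Chromium 3′ platform. How the cord was injured and what the sham procedure was are not given in the sources used here. With 1 pooled library per group there is no replicate, so no test was made. Intervals below are 95% intervals of counting error alone and do not cover variation between animals.

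Microglia are seeded in the embryo and are thereafter kept up mainly by their own division, which is rare in the uninjured cord and becomes frequent after damage. A dividing cell copies its DNA in S phase, prepares in G2 and separates its chromosomes in mitosis, and each step has its own set of transcripts. Genes for replication and nucleotide supply are switched on by E2F factors around the start of S phase. Genes for the spindle, the kinetochore and the mitotic kinases are switched on later, through a promoter element called the cell cycle genes homology region (CHR) that is bound by MuvB complexes with B-MYB and FOXM1.

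The cells carried markers of microglia and of division, as their label says. Fcrls, a microglial Fc receptor-like gene and 1 of the 6 gate genes, had 1173 counts per 1000000 UMIs of the set (CPM) in cycling microglia, 1039 CPM in other microglia and 1005 CPM in sham microglia. C1qa, which encodes a chain of complement C1q, had 6811, 6531 and 9008 CPM in the same order. Mki67, which encodes the proliferation antigen Ki-67, had 317 CPM in cycling microglia, 6.49 CPM in other microglia and 2.17 CPM in sham microglia. Top2a, the topoisomerase that untangles copied DNA, had 295, 6.63 and 1.13 CPM. Fcrls, Mki67 and Top2a are genes of the rule, which picks cells with more of them, while C1qa is not.

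The rule was met with room to spare in most cells. Cycling microglia had a median of 22 UMIs of the 10 genes, with quartiles of 8 and 54 and a maximum of 258. At least 10 UMIs were present in 1125 cells (70.7%), a median of 7 of the 10 genes was detected per cell, and 439 cells had all 10. Pclaf, a partner of the sliding clamp PCNA, was found in most cells of the 10, at 84.4% of cycling microglia with 277 CPM, against 6.88% of other microglia with 6.98 CPM. Birc5, which encodes survivin of the chromosomal passenger complex, had 302 CPM in cycling and 10.6 CPM in other microglia. Cdk1, the kinase that drives mitotic entry, had 176 against 9.94 CPM. Its cyclins were present too, with 79.5 against 1.55 CPM for Ccnb1 and 83.9 against 1.83 CPM for Ccna2. Tpx2, a spindle assembly factor, had 115 against 2.04 CPM. Ccnb1 was found in fewest cells, at 50.3% of cycling and 1.54% of other microglia.

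At the edge of the rule, 138 cells had exactly 3 UMIs, while 243 other microglia had 2, 413 had 1 and 710 had none. Cells just inside the rule, with 3 UMIs, had 2484 CPM over the replication and nucleotide genes and 2422 CPM over the mitosis genes. Cells just outside it, with 2 UMIs, had 1988 and 2080 CPM, and cells with no UMI had 1479 and 1707 CPM. The sums thus ran on across the edge of the rule without a gap.

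In the 3 dpi library 53.8% of gated microglia were cycling (95% Clopper-Pearson interval 52.0 to 55.6%), against 1 of 2213 gated barcodes in the sham library, or 0.0452% (0.00114 to 0.252%). That single sham barcode held 39250 UMIs, against a sham median of 4078, and was called a doublet. Depth differed between the libraries and between the sets: the median was 15657 UMIs in cycling microglia, 9242 in other microglia and 4078 in sham microglia. Each cell was therefore also thinned at random to 2000 UMIs. At that depth 29.7% of 3 dpi microglia (28.1 to 31.4%) and 0.0452% of sham microglia kept 3 or more UMIs of the 10 genes. At least 1 such UMI was present in 50.2% of 3 dpi microglia and 0.587% of sham microglia.

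Free RNA in the droplets can put a few cycle transcripts into a barcode that does not divide. Oligodendrocytes, the myelinating cells, do not divide and were set beside the microglia as a background. Their gate did not bar precursor or macrophage markers, and doublets were kept, so this background can also hold mixed barcodes. At full depth 63 of 1563 oligodendrocytes (4.03%) reached 3 UMIs of the 10 genes. The median depth was 9372 UMIs in oligodendrocytes against 12771 UMIs in gated microglia. The 63 had a median of 19271 UMIs, against 9119 UMIs in the other oligodendrocytes, and the part of mixed barcodes in them was not tested. After thinning, 0.640% of oligodendrocytes did so, against 29.7% of microglia, and 7.81% had at least 1 UMI, against 50.2% of microglia. The level of Mki67 in other microglia, 6.49 CPM, was below the 10.5 CPM of oligodendrocytes, and for Pclaf the values were 6.98 and 11.7 CPM. Cdk1 at 9.94 against 5.78 CPM and Ube2c at 15.5 against 11.7 CPM were the other way round. The rule holds other microglia under 3 UMIs of these genes, while the oligodendrocytes include the 63 that reached 3. These levels therefore cannot tell whether other microglia were at the background of free RNA.

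The share of microglia meeting the rule rose with the depth of the barcode. It was 15.9% among barcodes of 2000 to 5000 UMIs, 26.4% at 5000 to 10000, 56.7% at 10000 to 15000, 73.6% at 15000 to 20000 and 84.2% at 20000 UMIs or more. Oligodendrocytes went over the same bins at 1.03, 1.41, 3.40, 7.34 and 13.6%. Whether dividing cells hold more RNA or deeper barcodes only reveal more cycling cells cannot be told apart from these values.

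**Figure D1:**
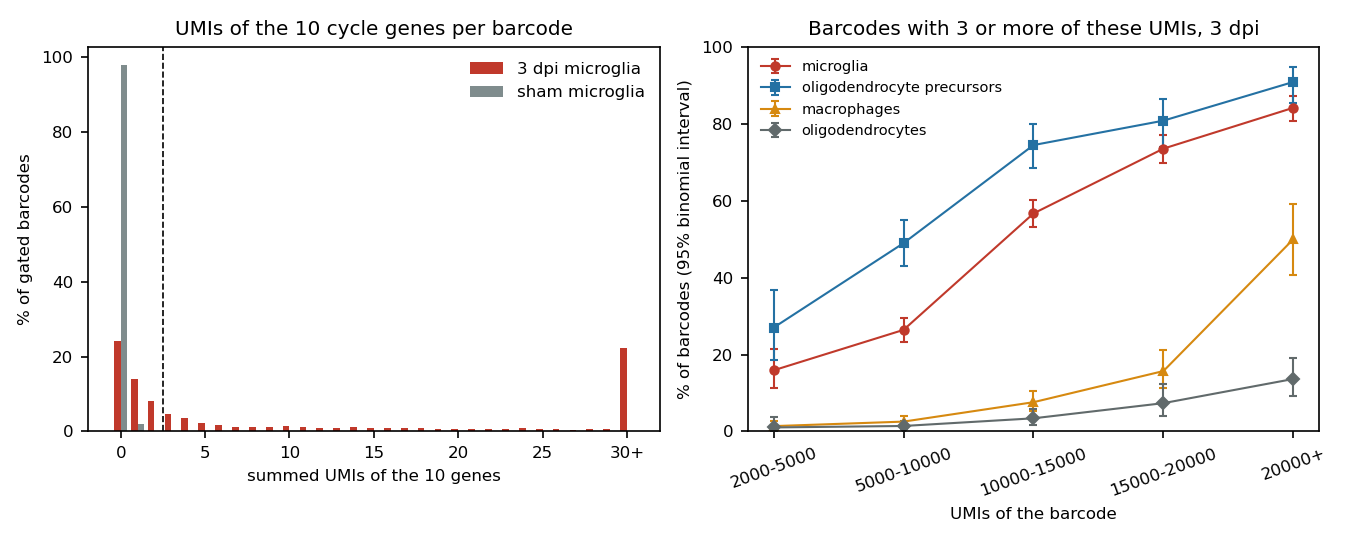
Left, percent of gated microglia (y axis) by summed UMIs of the 10 cycle genes (x axis) at 3 dpi (red) and in sham (grey), with the rule's minimum of 3 as a dashed line and 30 or more in the last bar. Right, percent of barcodes with 3 or more of these UMIs (y axis, 95% binomial interval) by depth of the barcode (x axis) for 4 cell types at 3 dpi; microglia reach 84.2% and oligodendrocytes 13.6% in the deepest bin.

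Both sexes contributed. Among cells with a UMI from the Y chromosome and none of Xist, 58.7% of 1073 gated 3 dpi microglia were cycling, and among cells with Xist and no Y-linked UMI 50.2% of 1132 were. After thinning the shares were 33.4% (30.5 to 36.3%) in male-derived cells and 28.7% (26.1 to 31.4%) in female-derived cells. These are 1 pool of 5 animals of each sex, and the difference between animals is not known. UMIs of both sexes, which mark barcodes with RNA of at least 2 animals, were present in 9.92% of cycling microglia and 5.45% of other microglia that had any sex-linked UMI. The 2 libraries shared 39 barcode sequences, of which 3 belonged to cycling microglia.

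Markers of other cell types were read in both sets. The 5 precursor markers summed to 126 CPM in cycling microglia and 66.5 CPM in other microglia, and no cell of either set reached 20 per 10000 of them. The 5 macrophage markers summed to 2190 CPM in cycling microglia and 3176 CPM in other microglia, and 646 of 1591 cycling and 560 of 1366 other microglia had at least 20 per 10000 of them. Their median per cell was 16.2 per 10000 in cycling microglia, 14.9 in other microglia and 65.2 in macrophages. The 5 monocyte markers summed to 39.9 and 139 CPM, with all 5 detected in cycling microglia. The 4 fibroblast markers Col1a1, Col1a2, Dcn and Lum summed to 361 CPM in cycling microglia and 1441 CPM in other microglia. Ly6g of neutrophils and Cd3e of T cells were at 0 in cycling microglia. At or above 10 per 10000 of the fibroblast markers were 37 cycling and 89 other microglia, and 28 cycling and 199 other microglia had under 20 per 10000 of C1qa, C1qb and C1qc. The gate gene Olfml3 is not restricted to microglia. A stricter identity, which needs the C1q genes and bars the fibroblast markers, left 1542 cycling and 1163 other microglia and brought the fibroblast markers to 42.6 and 38 CPM. Values under it are given below for some of the named genes and lists, and its list medians are in the plot of gene lists.

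Counts were summed over the cells of each set and compared as CPM with 10 CPM added. Of 5598 genes at 20 CPM or more in either set, 183 were at least 2-fold higher in cycling microglia (3.27%) and 70 at least 2-fold lower (1.25%), and the median log2 ratio of all 5598 was 0.05. Under the stricter identity 184 genes were higher (3.38% of 5438) and 19 lower (0.349%). Of these, 177 higher and 17 lower genes were called under both. Because the rule picked the cells by 10 cycle genes, and transcripts of 1 cell cycle rise and fall together, all ratios between these sets are descriptions of the chosen cells. A gene could also pass the 20 CPM minimum only through the set where it was high.

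Cycle genes outside the rule were higher as well: 123 of 166 measured genes on 7 lists were at least 2-fold higher and none was lower, beside 3.27% of all genes. These 166 are the part of 240 listed genes in the tables that reached 20 CPM in either set. The plot of gene lists shows these ratios one gene at a time.

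The DNA replication list had 24 of 38 measured genes higher, with a median log2 ratio of 1.15. Mcm3, a subunit of the replicative helicase, had 130 CPM in cycling microglia (126 to 135), 49.7 CPM in other microglia (46.1 to 53.5) and 25.5 CPM in sham microglia. Its ratio was 2.62 (2.42 to 2.85) and its log2 ratio in male-derived and female-derived cells was 1.16 and 1.20. Mcm6 had 86.3 against 35.4 CPM, Mcm5 74.1 against 18.3 CPM and Mcm7 73.9 against 17.8 CPM, whereas Mcm4 had 34.2 against 15.2 CPM and was within 2-fold on the scale with 10 CPM added. Pcna, the sliding clamp of the polymerase, had 84.7 against 28.6 CPM. Asf1b, a histone chaperone of S phase, had the largest ratio of the list with 56.1 against 3.74 CPM. Cdt1, which licenses origins in G1 and is destroyed in S phase, had 30.7 against 18.4 CPM, the lowest ratio of the list.

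Nucleotide supply was uneven, with 7 of 19 genes higher. Among the 7 were Rrm1, Rrm2, Tyms, Tk1, Dut and Dtymk, which make or guard deoxynucleotides. Rrm2, the regulated subunit of ribonucleotide reductase, had 76.1 CPM in cycling microglia (72.9 to 79.5) and 3.88 CPM in other microglia (2.92 to 5.05), and no UMI in sham microglia. Tyms, which makes thymidylate, had 103 against 13 CPM and Tk1, a thymidine kinase, 85.7 against 7.05 CPM. The purine synthesis genes on the list stayed within 2-fold: Paics had 64.4 against 40.3 CPM, Gart 33.6 against 22.1 CPM and Atic 40.3 against 32.5 CPM.

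Histones and chromatin proteins had 18 of 23 genes higher, and 15 of 22 under the stricter identity. Hist1h2ap, a histone H2A gene, had 608 CPM in cycling microglia (599 to 617), 24.5 CPM in other microglia and 24.6 CPM in sham microglia, and was detected in 67.9 and 19.6% of the cycling and other cells. Hist1h1b, a linker histone, had 153 against 6.06 CPM. These values carry a limit, as replication-dependent histone messages mostly lack a poly(A) tail and near-identical histone genes can share reads. H2afz, a histone variant made throughout the cycle, had 1970 against 776 CPM, and Ezh2, the methyltransferase of Polycomb, had 79.8 against 14.6 CPM.

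The 3 mitosis lists had the highest list medians outside the rule. Of the mitotic kinases, cyclins and checkpoint genes 18 of 20 were higher, of the spindle, kinesin and cytokinesis genes 36 of 38, and of the centromere, condensin and cohesin genes 17 of 21, with median log2 ratios of 1.91, 1.85 and 1.56. Prc1, which bundles the microtubules of the central spindle, had 113 CPM in cycling microglia (109 to 117), 2.26 CPM in other microglia (1.54 to 3.18) and 1.23 CPM in sham microglia. Cenpe, a kinetochore motor, had 84.0 against 1.62 CPM. Cdca8, a subunit of the chromosomal passenger complex, had 167 against 7.68 CPM. Plk1, a kinase of mitotic entry, had 51.3 against 1.20 CPM, and Cdc20, which activates the anaphase-promoting complex, had 62.4 against 2.04 CPM. Pttg1, which encodes securin, and Bub3, a checkpoint protein, were the 2 kinase-list genes within 2-fold, with 35.8 against 32.0 CPM and 130 against 70.5 CPM.

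The list of G1 cyclins, E2F and Rb family genes had a lower median log2 ratio, 0.50, than the cycle lists. Of its 10 measured genes 1 was at least 2-fold higher with 10 CPM added, beside 3.27% of all genes. This was Foxm1, the factor of the mitotic program, with 23.6 against 1.69 CPM. E2f1 had 43.2 against 19.6 CPM and Ccne1, cyclin E1, 22.1 against 6.49 CPM, both past 2-fold only without the added 10 CPM. Ccnd1, cyclin D1, which couples growth factors to the cycle, had 197 CPM in cycling microglia, 144 CPM in other microglia and 141 CPM in sham microglia. Its log2 ratio of 0.42 was 0.03 when other microglia were weighted to the depth of the cycling ones. Cdk4 had 184 against 121 CPM and Cdk6 53.0 against 46.2 CPM.

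Of 11 measured inhibitors and quiescence genes, 2 were higher and 1 was lower, beside 3.27% and 1.25% of all genes. Cdkn2c, which encodes the CDK4 and CDK6 inhibitor p18, had 47.9 CPM in cycling microglia (45.4 to 50.6) and 6.98 CPM in other microglia (5.67 to 8.5). Cdkn2d, which encodes p19 of the same family, had 114 CPM (110 to 118) and 41.4 CPM (38.2 to 44.9). Both were higher in male-derived and in female-derived cells, with log2 ratios of 1.72 and 1.97 for Cdkn2c and 1.45 and 1.25 for Cdkn2d. Cdkn1a, the p53 target p21, had 329 against 335 CPM. Klf4, a factor tied to growth arrest, had 78.8 CPM in cycling microglia, 176 CPM in other microglia and 775 CPM in sham microglia, and its log2 ratio of -1.07 was -0.68 under the stricter identity. Of 7 measured repair genes 3 were higher, beside 3.27% of all genes. Among the 3 was Topbp1, a scaffold of the replication checkpoint, with 47.1 against 18 CPM.

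**Figure D2:**
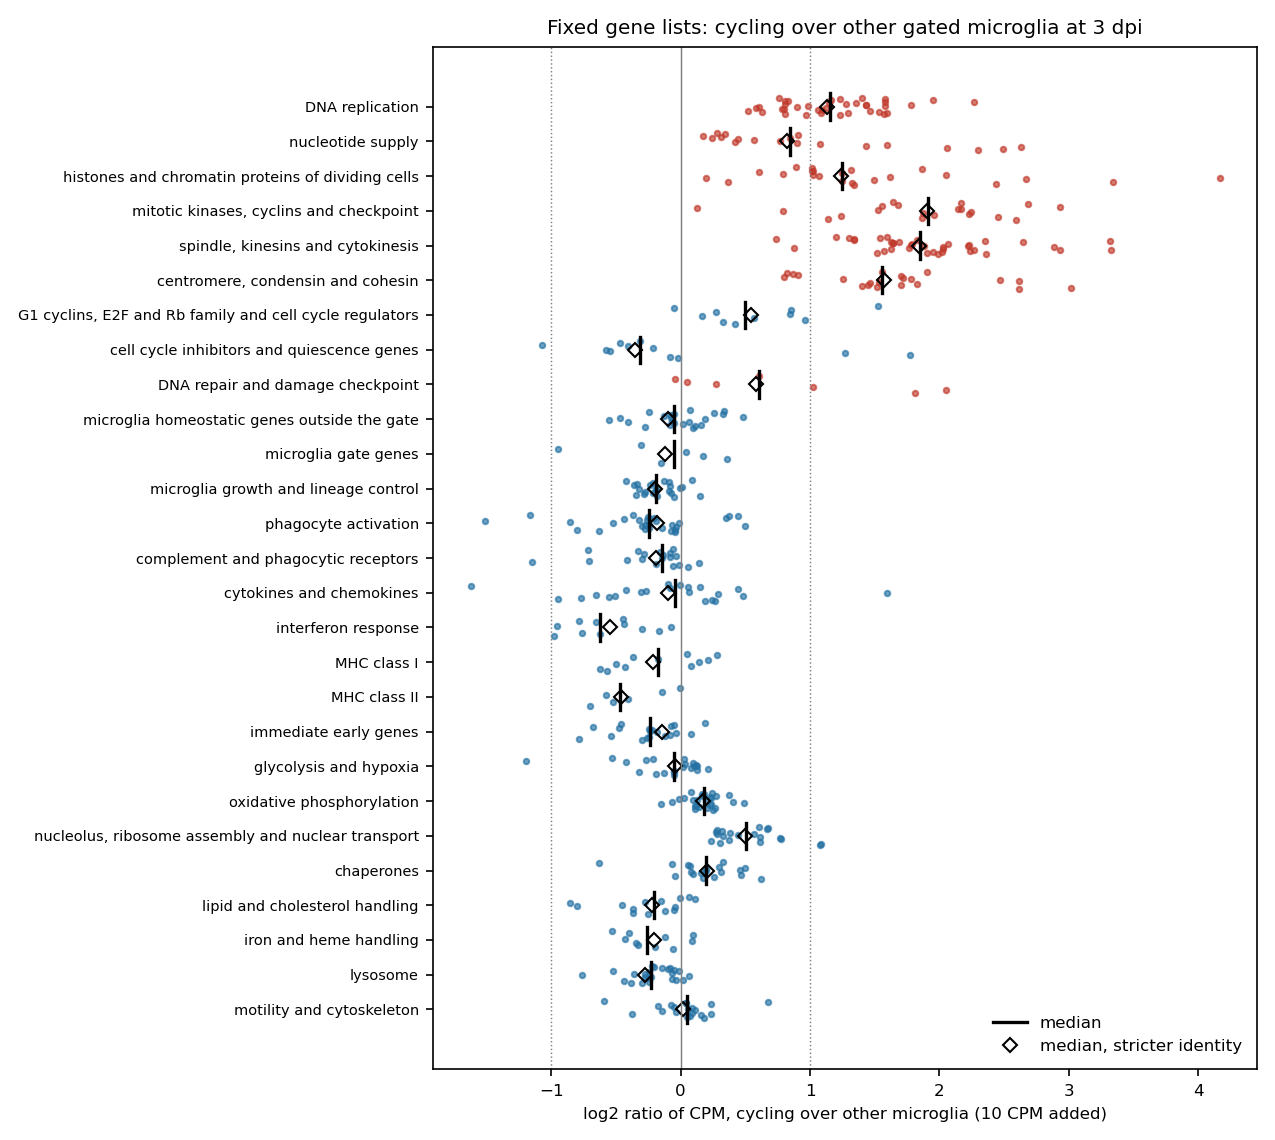
Each point is 1 measured gene of a fixed list (rows), placed by the log2 ratio of its CPM in cycling over other microglia with 10 CPM added (x axis), with lists of the cell cycle and DNA repair in red and other lists in blue. Bars are list medians, open diamonds are medians under the stricter identity, and dotted lines mark 2-fold; the 3 mitosis lists have medians of 1.91, 1.85 and 1.56.

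The promoters of these genes are shown because the timing of the transcripts is tied to promoter elements. They are 300-base RefSeq windows of the mouse build GRCm38.p6, from 250 bases before to 50 bases after the start site. Each is printed 5′ to 3′ on the strand of its gene, with CHR and E2F letters in capitals. The 4 promoters of mitotic genes and the 3 of S-phase genes were picked for matches to these motifs.
Cdk1, chr10:69352863-69353162, minus strand: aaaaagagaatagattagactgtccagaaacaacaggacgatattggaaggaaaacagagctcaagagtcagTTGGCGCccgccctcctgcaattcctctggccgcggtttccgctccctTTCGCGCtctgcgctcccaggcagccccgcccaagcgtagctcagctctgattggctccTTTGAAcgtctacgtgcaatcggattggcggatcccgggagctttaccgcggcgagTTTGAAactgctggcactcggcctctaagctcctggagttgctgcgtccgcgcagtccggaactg
Cdc20, chr4:118437294-118437593, minus strand: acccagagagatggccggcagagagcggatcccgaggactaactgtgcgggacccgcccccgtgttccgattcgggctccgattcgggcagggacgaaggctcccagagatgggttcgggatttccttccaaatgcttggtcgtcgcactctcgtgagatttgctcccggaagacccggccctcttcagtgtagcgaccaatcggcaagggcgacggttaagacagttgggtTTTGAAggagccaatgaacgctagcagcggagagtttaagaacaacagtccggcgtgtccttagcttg
Top2a, chr11:99024140-99024439, minus strand: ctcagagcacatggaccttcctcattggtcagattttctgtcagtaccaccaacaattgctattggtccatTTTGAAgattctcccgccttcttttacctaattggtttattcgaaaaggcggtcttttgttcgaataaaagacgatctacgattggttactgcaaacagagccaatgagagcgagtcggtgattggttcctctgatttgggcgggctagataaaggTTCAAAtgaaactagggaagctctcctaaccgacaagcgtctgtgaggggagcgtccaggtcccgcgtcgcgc
Mki67, chr7:135716330-135716629, minus strand: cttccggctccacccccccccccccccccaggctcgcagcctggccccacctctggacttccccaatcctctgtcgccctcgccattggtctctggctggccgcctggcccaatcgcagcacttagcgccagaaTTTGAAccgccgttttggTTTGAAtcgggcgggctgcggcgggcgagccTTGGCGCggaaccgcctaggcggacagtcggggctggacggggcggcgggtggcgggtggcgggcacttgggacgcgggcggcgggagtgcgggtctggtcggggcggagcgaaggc
Mcm3, chr1:20820263-20820562, minus strand: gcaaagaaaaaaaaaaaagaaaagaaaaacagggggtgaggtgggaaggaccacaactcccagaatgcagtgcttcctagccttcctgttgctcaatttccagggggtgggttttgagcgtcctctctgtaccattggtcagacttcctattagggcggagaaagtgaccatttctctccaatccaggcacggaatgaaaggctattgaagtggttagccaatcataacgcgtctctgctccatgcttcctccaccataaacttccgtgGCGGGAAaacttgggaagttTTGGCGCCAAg
Mcm6, chr1:128359656-128359955, minus strand: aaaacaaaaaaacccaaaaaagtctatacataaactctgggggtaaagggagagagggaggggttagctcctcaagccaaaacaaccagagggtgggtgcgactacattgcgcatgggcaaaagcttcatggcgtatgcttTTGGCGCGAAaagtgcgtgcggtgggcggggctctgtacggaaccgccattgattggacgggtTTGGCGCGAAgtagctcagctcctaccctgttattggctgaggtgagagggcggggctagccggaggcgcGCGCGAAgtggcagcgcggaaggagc
Pclaf, chr9:65890073-65890372, plus strand: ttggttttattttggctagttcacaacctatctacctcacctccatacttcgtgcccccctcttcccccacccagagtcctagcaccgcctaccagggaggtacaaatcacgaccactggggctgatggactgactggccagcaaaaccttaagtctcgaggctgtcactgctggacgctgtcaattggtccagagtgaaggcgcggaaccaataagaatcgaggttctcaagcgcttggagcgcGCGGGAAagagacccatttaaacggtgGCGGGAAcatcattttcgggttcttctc

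The CHR was searched as TTTGAA and the E2F site as TTCCCGC, and also as TTCGCGC, or as TTGCCGC, or else as TTGGCGC, all on both strands, and E2F letters may overlap one another. In Cdk1 the CHR letters start 71 and 15 bases before the start site, and E2F letters start 178 and 130 bases before it. In Cdc20 CHR letters start 18 bases before the start site, and none of the E2F letters is in the window. Mcm3, Mcm6 and Pclaf have E2F letters and no CHR letters in their windows. Over the lists, CHR letters were in 57 of 97 promoters of the 3 mitosis lists (58.8%) and in 11 of 77 promoters of the replication and nucleotide lists (14.3%). E2F letters were in 24.7% of the mitosis promoters and 53.2% of the replication and nucleotide promoters. Of all 32851 promoters of this length, 17.9% held CHR letters and 9.57% held E2F letters. CCAAT, an element often found beside the CHR, was in 69.1, 50.6 and 37.4% of the 3 sets. A match describes letters and is not a site shown to be bound, and of the 10 rule genes 8 had a promoter in the table.

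Cycling microglia differed in their balance of replication and mitosis transcripts. This balance was described by the share of mitosis UMIs among mitosis plus replication UMIs. The score used 103 mitosis genes and 80 replication and nucleotide genes, none of them in the rule. Microglia with no rule UMI had 1479 CPM over the replication and nucleotide genes and 1707 CPM over the mitosis genes. That level was not subtracted, so the share is not a measured cycle position. The median share was 0.661 with quartiles of 0.50 and 0.773. Below 0.4 were 130 cells (8.17%), between 0.4 and 0.6 were 502 (31.6%) and at 0.6 or more were 959 (60.3%). Within 0.05 of the lower and the upper limit were 219 and 237 cells, so these are ranges along a continuum. Abundant tubulin genes and Stmn1 weigh on the score. Without these 4 genes 524 cells (32.9%) were below 0.4, 408 (25.6%) between and 659 (41.4%) at 0.6 or more. That score had 2 peaks, with 275 cells from 0.3 to 0.4, 194 from 0.4 to 0.5 and 286 from 0.7 to 0.8. The 3 ranges had median depths of 15124, 16392 and 15183 UMIs.

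Genes that the score did not use changed over its range, though Ube2c, Cenpf, Ccnb1 and Pclaf are rule genes that picked the cells. The median rule sum itself was 6, 14 and 40 UMIs over the 3 ranges. From the lowest to the highest range, Ube2c, a ubiquitin-conjugating enzyme of mitotic exit, had 19.1, 46.6 and 422 CPM. Cenpf, a kinetochore protein, had 5.89, 28.9 and 205 CPM, and Ccnb1, cyclin B1, had 6.87, 22.2 and 120 CPM. Pclaf differed less, with 153, 294 and 283 CPM. Hist1h2ap was lowest in the lowest range, with 113, 731 and 602 CPM, as was Hist1h1b, with 31.4, 195 and 145 CPM. The cycle phase of that range was not tested. Some other histone genes had their highest level in the last range, with 132, 145 and 225 CPM for Hist1h2bc and 1235, 1502 and 2328 CPM for H2afz. Ccne1 had 31.9, 42.6 and 9.61 CPM and E2f1 had 82.4, 70.7 and 23.1 CPM. Both inhibitors were highest in the highest range, with 18.2, 27.0 and 63.2 CPM for Cdkn2c and 45.1, 71.1 and 146 CPM for Cdkn2d. Of the scored genes, Mcm3 had 263, 195 and 78.1 CPM and Cdc20 8.34, 12.5 and 96.8 CPM, which the score itself fixes. Fcrls had 1208, 1180 and 1164 CPM over the 3 ranges.

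**Figure D3:**
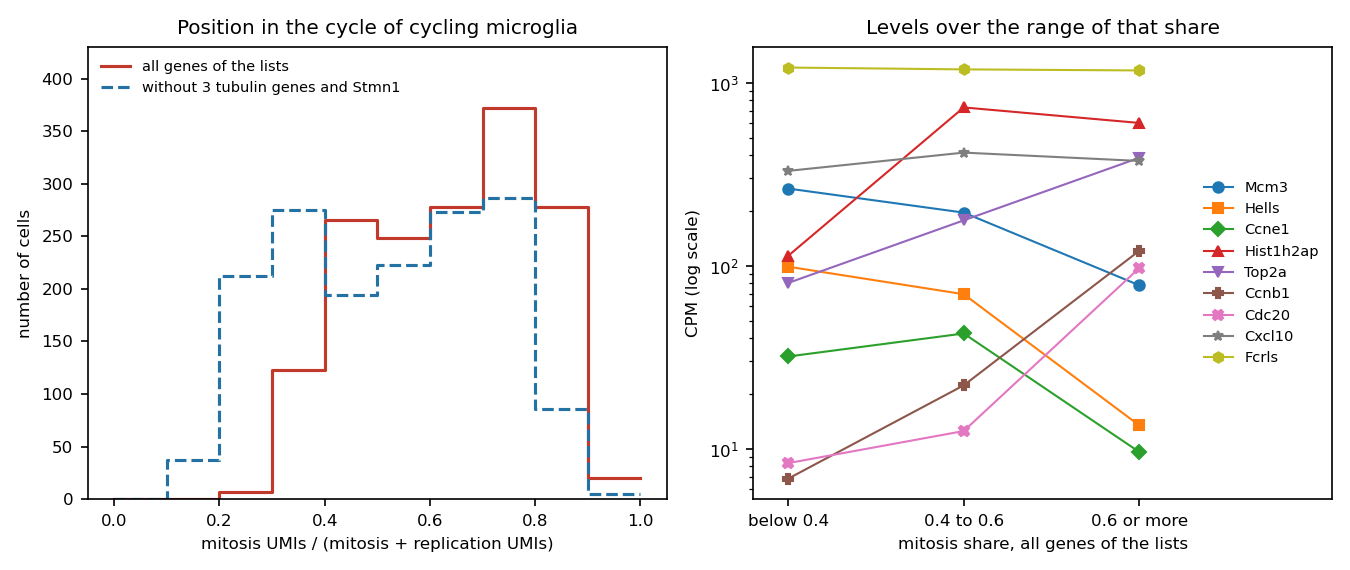
Left, number of cycling microglia (y axis) by the share of mitosis UMIs among mitosis plus replication UMIs (x axis), from all scored genes (solid) and without 3 tubulin genes and Stmn1 (dashed). Right, CPM on a log scale (y axis) of 9 genes in cells below 0.4, from 0.4 to 0.6 and at 0.6 or more (x axis); Ccnb1 had 6.87, 22.2 and 120 CPM and Fcrls 1208, 1180 and 1164 CPM.

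Both sets had to pass the microglia gate, and the listed microglial genes outside it were within 2-fold between them. Of 23 measured homeostatic genes none was 2-fold higher or lower, with a median log2 ratio of -0.05 and a range from -0.55 to 0.48. Of 23 growth and lineage genes none was either, with a median of -0.19. Among all genes 3.27% were higher and 1.25% lower, so none of 23 is close to those shares. Csf1r, the receptor of the survival factors CSF1 and IL-34, had 619 CPM in cycling microglia, 640 CPM in other microglia and 2644 CPM in sham microglia. Cx3cr1, the fractalkine receptor, had 639, 596 and 2889 CPM in the same order. Both 3 dpi sets were thus far below sham for Csf1r and Cx3cr1. Among the gate genes Tmem119 had 246 against 190 CPM and Siglech 15.2 against 38.6 CPM. The log2 ratio of Siglech, -0.95, was 0.07 when other microglia were weighted to the depth of the cycling ones. Spp1, which encodes osteopontin, had 29706 against 30553 CPM.

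Metabolic and biosynthetic genes shifted by less than 2-fold in nearly all cases, as did most measured genes. Ran, the GTPase of nuclear transport and spindle assembly, had 853 CPM in cycling microglia (842 to 864) and 399 CPM in other microglia (388 to 409). Its partner Ranbp1 had 368 against 168 CPM. These 2 were the only genes of 20 on the nucleolus and nuclear transport list at 2-fold, beside 3.27% of all genes higher. The median log2 ratio of that list was 0.51, with all 20 ratios above 0, from Fbl at 98.3 against 81.9 CPM upwards. None of 27 oxidative phosphorylation genes and none of 19 chaperones reached 2-fold, with medians of 0.18 and 0.20. Ribosomal protein genes took 18.2% of UMIs in cycling and 18.1% in other microglia. Vegfa, an angiogenic factor, was the 1 gene of 21 on the glycolysis and hypoxia list past 2-fold, with 10.5 against 36.9 CPM. Among all genes 1.25% were lower.

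Outside the lists the 12 highest genes included several of the nucleus. Tmpo, which encodes a lamina-associated protein, had 164 CPM in cycling microglia (159 to 168) and 32.3 CPM in other microglia (29.4 to 35.4). Rangap1, which activates the GTPase of Ran, had 101 against 21.5 CPM, and Nasp, a histone chaperone, had 105 against 46.9 CPM. The others were Ccdc34, Lsm2, Nucks1, Fam111a, Selenoh, Alyref, Rbbp7, Snrpd1 and Lsm5. Their log2 ratios ran from 0.95 in Lsm5 to 2.04 in Tmpo.

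The 12 lowest genes outside the lists included matrix genes and genes high in macrophages. Dcn, which encodes the matrix proteoglycan decorin, had 70.3 against 614 CPM, and its log2 ratio of -2.96 was 0.08 under the stricter identity. Mgp, Timp3, Apod, Bgn, Igfbp7 and Col3a1 likewise had log2 ratios of -1.48 or lower that were above 0 under it, and Igfbp7 stood at 1.39. Lbp and Ifitm1, at -2.11 and -1.59, were at -0.21 and -0.22. Thbs1, Ms4a7 and F13a1 kept log2 ratios of -1.49, -1.45 and -1.35 under the stricter identity, against -1.69, -1.51 and -1.46 without it. Thbs1, which encodes the adhesive protein thrombospondin 1, had 119 CPM in cycling microglia (115 to 123) and 405 CPM in other microglia (394 to 415).

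Among phagocyte activation genes, 2 of 29 were at least 2-fold lower, beside 1.25% of all genes, and none was higher. Lyz2, lysozyme, had 3410 CPM in cycling microglia, 7635 CPM in other microglia and 510 CPM in sham microglia, and Gpnmb, a glycoprotein of lipid-laden phagocytes, had 145, 433 and 1.32 CPM. Apoe, the lipid carrier apolipoprotein E, had 10192 against 17752 CPM and Fabp5, a fatty-acid carrier, had 1607 against 2912 CPM. The log2 ratio of Apoe was -0.80, and -0.48 with depth weighting. Pf4, a platelet and macrophage chemokine, had 369 against 1153 CPM. After removal of cells with monocyte or macrophage markers, Pf4 itself among them, its log2 ratio of -1.62 was 0.09, that of Lyz2 was -0.35, that of Gpnmb -0.36, that of Thbs1 -0.64 and that of Ms4a7 -0.50. The part of macrophage RNA or of macrophages within the gate in these ratios was not tested.

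Interferon-response genes were lower in level on all 11 measured genes, with a median log2 ratio of -0.62. None passed 2-fold on the scale with 10 CPM added, which shrinks the ratios of low genes such as Ifit3. Under the stricter identity 1 of the 11 passed it, Ifit3 at -1.04, beside 0.349% of all genes lower. Ifit3 had 6.61 CPM in cycling microglia (5.68 to 7.65) and 22.6 CPM in other microglia (20.2 to 25.2). Ifit1, Ifit2, Ifit3, Isg15 and Rsad2 together had 38.4 against 97.6 CPM, and 3.39 against 5.05% of cells had at least 3 of their UMIs. Cd74, the MHC class II invariant chain, had 75.4 against 128 CPM. Its log2 ratio was 0.06 in male-derived and -0.80 in female-derived cells. No gene of the MHC lists passed 2-fold, beside 3.27% of all genes higher and 1.25% lower. The 11 genes of class I had a median of -0.18. The 6 of class II had a median of -0.47, which ran from -0.74 to 0.19 over 20 alternatives.

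None of 24 lysosome, 19 immediate early, 14 lipid, 10 iron and 20 motility genes passed 2-fold in either direction. Among all genes 3.27% were higher and 1.25% lower. Their medians were -0.23, -0.24, -0.20, -0.26 and 0.05 in that order, and that of the immediate early genes ran from -0.37 to 0.12 over the alternatives.

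Cxcl10 had the highest ratio of the measured cytokines and chemokines. It encodes a chemokine that draws CXCR3-bearing lymphocytes and is classed with interferon-induced genes. It was the 1 gene of 22 measured cytokines and chemokines that was at least 2-fold higher, beside 3.27% of all genes. Cxcl10 had 383 CPM in cycling microglia (376 to 391), 120 CPM in other microglia (114 to 126) and 99.8 CPM in sham microglia. It was detected in 54.1% of cycling and 19.8% of other microglia, and after thinning in 32.0% (29.7 to 34.3%) and 10.3% (8.76 to 12.1%), against 7.55% of sham microglia. The log2 ratio was 1.6, with 1.5 under the stricter identity, 1.83 with depth weighting, 1.35 in male-derived and 1.94 in female-derived cells. The 10 cells with most Cxcl10 held 6.67% of its UMIs in cycling microglia and 24.0% in other microglia. Pf4 was the 1 gene of the list at least 2-fold lower, beside 1.25% of all genes. Under the stricter identity Ccl5, at -1.02, was lower too, beside 0.349% of all genes. Of the other chemokines, Ccl12 had 544 against 386 CPM, Cxcl2 751 against 613 CPM, Ccl3 752 against 658 CPM and Tnf, a cytokine, 240 against 174 CPM.

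The level of Cxcl10 was lowest in cells with no rule UMI and highest in cells with 40 or more, without a steady rise between. It was 87.4, 112 and 201 CPM in cells with 0, 1 and 2 UMIs, and 165, 199, 191, 394, 434 and 473 CPM in cells with 3, 4, 5 to 9, 10 to 19, 20 to 39 and 40 or more. From 2 to 9 UMIs it stayed between 165 and 201 CPM. Median depth was 20013 UMIs in the last bin and 8030 in the first, and its part in these levels was not tested. Over the ranges of the mitosis share Cxcl10 varied little, with 329, 414 and 373 CPM from the lowest to the highest. In oligodendrocytes it was at 5.34 CPM, and 0.768% of them had a UMI after thinning.

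**Figure D4:**
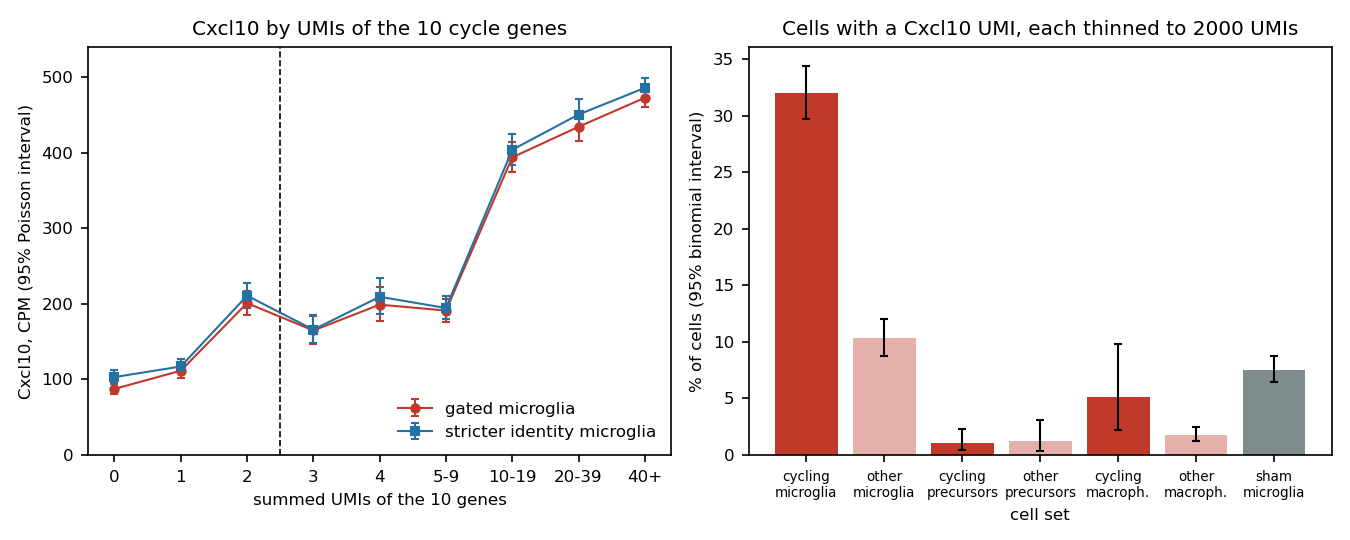
Left, Cxcl10 in CPM (y axis, 95% Poisson interval) by summed UMIs of the 10 cycle genes (x axis) in gated microglia at 3 dpi and under the stricter identity, with the rule's minimum as a dashed line. Right, percent of cells with a Cxcl10 UMI after thinning to 2000 UMIs (y axis, 95% binomial interval) in 7 cell sets (x axis); cycling microglia stand at 32.0%, other microglia at 10.3% and sham microglia at 7.55%.

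Other dividing cells of the library were set beside the microglia. Oligodendrocyte precursors had at least 5 per 10000 of the markers Pdgfra, Cspg4, Cacng4, Lhfpl3 and C1ql1 and under 5 per 10000 of the microglia gate genes. Macrophages had at least 5 per 10000 of Ms4a7, Pf4, Arg1 and Ccr2, at least 10 per 10000 of Lyz2 and under 2 per 10000 of the gate genes. The same minimum of 3 UMIs was met by 636 of 967 oligodendrocyte precursors (65.8%) and by 157 of 2102 macrophages (7.47%). In barcodes of 20000 UMIs or more the shares were 84.2% in microglia, 90.9% in precursors and 50% in macrophages. All 10 rule genes had lower CPM in cycling microglia than in cycling precursors. Cenpf had 132 CPM in microglia, 491 in precursors and 160 in macrophages, and Ccnb1 had 79.5, 206 and 76.8 CPM. Mcm3 had 130, 119 and 94.0 CPM. A mitosis share of 0.6 or more was found in 60.3% of cycling microglia, 72.3% of cycling precursors and 59.2% of cycling macrophages. Without the 3 tubulin genes and Stmn1 the shares were 41.4, 47.0 and 36.3%.

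The D cyclins also differed between these cells. Ccnd1 had 197 CPM in cycling and 144 CPM in other microglia, 2171 and 1837 CPM in precursors, and 441 and 46.7 CPM in macrophages. Cycling macrophages were deeper than other macrophages, with medians of 16970 and 7445 UMIs. The macrophage gate did not bar precursor or fibroblast markers, and the part of mixed barcodes in these levels was not tested. Ccnd2 had 12.7 CPM in cycling microglia, 190 CPM in cycling precursors and 72.4 CPM in cycling macrophages. Ccnd3 had 57.9, 192 and 98.8 CPM in the same order. Cdk6, a kinase partner of the D cyclins, had its highest level of the 3 in cycling microglia, with 53.0, 8.83 and 33.5 CPM. Cdkn2c was higher in the cycling cells of each type, with 47.9 against 6.98 CPM in microglia, 95.9 against 28.6 CPM in precursors and 37.9 against 3.81 CPM in macrophages. Cxcl10 had 10.7 against 9.98 CPM in precursors and 22 against 16.6 CPM in macrophages, and after thinning 1.10% of cycling precursors and 5.10% of cycling macrophages had a UMI, against 32.0% of cycling microglia.

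**Figure D5:**
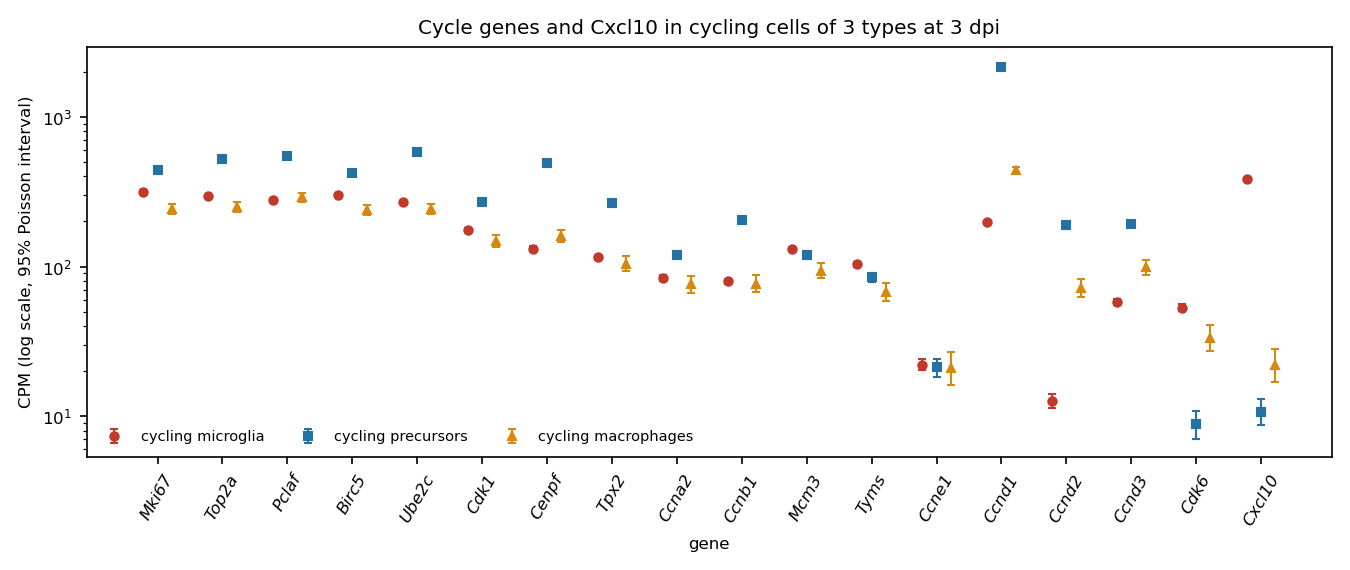
CPM on a log scale (y axis, 95% Poisson interval) of 18 genes (x axis) in cycling microglia, cycling oligodendrocyte precursors and cycling macrophages at 3 dpi. Ccnd1 stands at 197, 2171 and 441 CPM and Cxcl10 at 383, 10.7 and 22 CPM in the 3 types.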

How the data were processed

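The 2 deposited tables hold whole-number counts of UMIs per gene symbol and barcode, with no cell annotation. Cell Ranger and Seurat, and the human build GRCh38 although the symbols are mouse ones, are listed in the submitters' processing notes without roles or versions, so the build used for the counts is not known. The members and the 28 gene lists were chosen with earlier results of these data known. Counts were summed over the cells of a set, scaled to CPM, and called at 2-fold on log2 of CPM plus 10, with genes at 20 CPM or more in either set; no test was made. Beyond the lists, the named genes were the 12 with the highest and the 12 with the lowest ratio among genes at 100 CPM or more, with at least 20 UMIs and in at least 10% of cells of the higher set. Intervals are exact Poisson, Clopper-Pearson or exact conditional intervals at 95%; reads behind UMIs, droplets and pooling add error they do not cover. Doublets were scored against simulated doublets (1478 of 13594 barcodes at 3 dpi and 822 of 10138 in sham were called) and kept, with their removal as an alternative. On simulated counts the 2-fold call recovered 200 of 200 changed genes and called 0 of 4915 unchanged ones. The size and level of these changed genes are not given here, and recovery of genes close to 2-fold was not tested. The error of the 2-fold call on the counts of these libraries was not tested either. There were 19 alternatives planned at the start and 2 added after the data were seen, the stricter identity and the mitosis share without 3 tubulin genes and Stmn1. Tables were handled with pandas 2.3.3 and numpy 2.4.6 under Python 3.11.15, intervals came from scipy 1.17.1, the doublet score from scikit-learn 1.9.0 and the figures from matplotlib 3.10.9. A few genes of the lists are not reported here.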

Additional observations from a re-analysis of the deposited data

How the results depend on the processing

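The share of cycling microglia at 3 dpi, 53.8%, was 56.8% with a minimum of 5000 UMIs, 62.0% and 45.7% with at least 2 and at least 5 rule UMIs, 29.7% after thinning, 60.1% with the microglia sum at 10 per 10000, 51.4% without called doublets, 58.7% in male-derived and 50.2% in female-derived cells, 60.4% without cells of monocyte or macrophage markers and 57.0% under the stricter identity. The sham share of 0.0452% was 0 with the microglia sum at 10 per 10000, without called doublets, in male-derived cells and without cells of monocyte or macrophage markers. The 70 lower genes were 39 when the rule was read on thinned cells, 33 with the microglia sum at 10 per 10000, 141 without called doublets, 142 in male-derived cells, 120 without cells of monocyte or macrophage markers, 118 with equal weight per cell, 120 with 1 CPM added and 19 under the stricter identity. The 183 higher genes were 99 and the 123 cycle genes were 64 with a filter of 50 CPM. The 60.3% of cells with a mitosis share of 0.6 or more was 56.8% and 65% with at least 2 and at least 5 rule UMIs, 75.4% on thinned cells, 63.6% in female-derived cells and 41.4% without 3 tubulin genes and Stmn1. The log2 ratio of Pf4 was 0.0877 without cells of monocyte or macrophage markers, which Pf4 helped to choose, and that of Dcn was 0.0828 under the stricter identity, which Dcn helped to choose. Beyond what those choices remove by construction, the cause of these moves was not tested. Over 20 alternatives the log2 ratio of Cxcl10 ran from 1.26 to 1.94, that of Cdkn2c from 1.67 to 2.62 and the median of the spindle list from 1.73 to 3.55. Median-of-ratios scaling shifted all log2 ratios by -0.06. No paired analysis was possible because each group is 1 pooled library.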

Other observations

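Vgf, which encodes a secreted neuropeptide precursor, and Nes, which encodes the intermediate filament nestin, were chosen after their values were seen. Vgf had 28.4 CPM in cycling microglia and 3.81 CPM in other microglia, and Nes had 45.8 against 17.9 CPM. By summed UMIs of the 10 cycle genes, Vgf stood at 3.28, 3.61, 5.20, 2.52, 29.3 and 8.49 CPM in microglia with 0, 1, 2, 3, 4 and 5 to 9 UMIs, and at 32.8, 32.9 and 34.8 CPM in those with 10 to 19, 20 to 39 and 40 or more. Nes stood at 17.8, 16.4, 20.5, 34.8, 39.5, 34.0, 46.2, 41.3 and 53.5 CPM in the same bins. Under the stricter identity its first 3 values were 8.78, 13.4 and 13.2 CPM and its last was 50.2 CPM. The 5 precursor markers were also higher in cycling than in other microglia, with 126 against 66.5 CPM. The part of mixed barcodes, or of a few cells, in the levels of Vgf and Nes was not tested.

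Of the MHC class II genes, 4 reached 20 CPM in oligodendrocyte precursors, and each did so only in the cycling ones. Their median log2 ratio in cycling over other precursors was 1.43, and the minimum itself favors a ratio above 0. H2-DMa and H2-DMb1, under the minimum in both precursor sets, had 12.4 against 12.3 CPM and 7.19 against 3.66 CPM. In cycling over other microglia the median over 6 measured genes was -0.47. Cd74 had 94.7 against 17.3 CPM in precursors and 586 against 578 CPM in macrophages. The difference between the cell types was not tested.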
